A study of Mus musculus with 15 samples.

Results

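Glucose uptake and glycolysis were followed through 10 genes, the glucose transporter Slc2a1 and the enzymes Hk2, Gpi1, Pfkl, Aldoa, Tpi1, Pgk1, Pgam1, Eno1 and Ldha, in mouse spleens taken over by acute promyelocytic leukaemia (APL). A member was measured through the array probesets, short groups of probes that mostly lie in single exons, whose only annotated gene symbol was its own. This held for 9 of the 10 genes and 128 probesets, among 16277 genes on the array. No probeset carried the symbol Ldha, the lactate dehydrogenase subunit, so its level is not reported. Eno1 was read by 1 probeset, because the other 13 that name it also name further loci and were not used.

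Glycolysis splits glucose into pyruvate in the cytosol and yields ATP without oxygen. Slc2a1 brings glucose into the cell, and hexokinase and phosphofructokinase carry out the committed, regulated steps, while most of the remaining enzymes work near equilibrium and are shared with the reverse pathway. Growing leukocytes and leukaemia cells use the pathway at a high rate, and its genes are known targets of the transcription factors HIF1 and MYC.

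The series held 15 arrays of 15 tumours, all spleen of strain Bl/6 Taconic with APL, a leukaemia of cells arrested as promyelocytes. The labels give 1 group, and genotype, age and animal of origin are not given in the sources used here, so no treated or healthy group was compared, and a p-value here reflects array-to-array spread that may be partly technical. Levels are log2 intensities, the median over a gene's probesets, and a gene counted as detected when its mean passed 6.41, the 40th percentile of all genes (9766 genes). The median intensity of an array lay between 107.6 and 128.5, and the 5 detected promyelocyte markers of 6 listed averaged between 10.70 and 11.30 in every tumour. Over all detected genes, tumor_9509 and tumor_9514 stood apart, with a correlation of 0.949 between the pair and of at most 0.900 to the rest. They had the lowest median intensities, 107.6 and 108.1, against 120.2 or more elsewhere. These 2 arrays are no group of the study, and each result is given with them (15 tumours) and without them (13 tumours). RNA of a whole spleen was measured, so fewer leukaemia cells and less RNA per cell cannot be told apart.

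All 9 measured members were detected, and most differed between tumours by more than a typical gene. Their SDs over 15 tumours ran from 0.18 for Pgk1 to 0.60 for Gpi1, and the SD exceeded the median SD of detected genes, 0.29, in 7 of the 9, with Pgk1 and Pfkl below it. Without tumor_9509 and tumor_9514 the median SD of detected genes was 0.25, and the SD of Gpi1 was 0.27, above 57.5% of detected genes rather than 95.0%. The SD of Aldoa was then 0.25, above 50.7% rather than 87.8%, and so close to that of a typical gene. The SD of Eno1 was 0.45 over 13 tumours, above 91.1% of detected genes, but it rests on 1 probeset. That probeset was dim, with a mean of 6.98 and a lowest value of 6.22, below the detection limit of 6.41. Levels of different genes also depend on probe affinity and are not ranked against each other.

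Slc2a1, the transporter that supplies basal glucose uptake, averaged 7.95 ± 0.34 (SD, n = 15). Its lowest value was 7.44 in tumor_9529, its median 7.94 and its highest value 8.44 in tumor_9500. The arrays set apart had 7.47 each, close to tumor_9529 and thus inside the range of the other 13. Slc2a1 was read by 9 probesets, and each correlated across tumours with the median of the others at a median r of 0.73, both with 15 and with 13 tumours. Slc2a3, a high-affinity transporter of white cells and neurons that is no member, averaged 7.93 ± 0.58 and ran from 7.06 in tumor_9508 to 9.38 in tumor_31. No relation between the 2 transporters was detected across tumours (r = 0.027, permutation p = 0.926, n = 15; rho = -0.039).

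Hk2, the inducible hexokinase that phosphorylates glucose, averaged 7.61 ± 0.36 (SD, n = 15). It ran from 7.22 in tumor_9529 over a median of 7.58 to 8.51 in tumor_29, and tumor_31 was next at 8.22. The other 13 tumours lay at 7.86 or below, so the spread of Hk2 came mainly from those 2 tumours. In tumor_9509 Hk2 was 7.72 and in tumor_9514 it was 7.25, neither outside the other tumours. Hk1, the constitutive hexokinase, averaged 7.82 ± 0.41 and no relation to Hk2 was detected (r = 0.21, permutation p = 0.465, n = 15). Pfkl, the liver-type subunit of phosphofructokinase, averaged 7.51 ± 0.27, from 6.94 in tumor_9509 over a median of 7.48 to 7.93 in tumor_29. Of its 21 probesets 5 lay below the detection limit. Over all 21, the median agreement of a probeset with the others was r = 0.58 over 15 and 0.39 over 13 tumours.

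Gpi1, the isomerase that turns glucose 6-phosphate into fructose 6-phosphate, averaged 11.14 ± 0.60 (SD, n = 15), the largest SD among the members. It was 9.65 in tumor_9509 and 9.95 in tumor_9514, against 10.66 in tumor_9508 and 11.09 to 11.68 in the other 12 tumours. The median was 11.33 and the highest value, 11.68, was that of tumor_36. All 20 Gpi1 probesets lay above the detection limit, and their median agreement was r = 0.92 over 15 and 0.83 over 13 tumours. The Gpi1 pattern therefore did not rest on a few probesets. Aldoa, the aldolase that splits fructose 1,6-bisphosphate, averaged 10.82 ± 0.49. It was 9.59 in tumor_9509 and 9.96 in tumor_9514, against 10.51 (tumor_9529) to 11.22 (tumor_9520) in the others, with a median over all 15 of 10.99. Aldoa had 8 probesets of its own, and 2 further ones shared with its retrogene Aldoart1 were left out.

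Tpi1, which interconverts the triose phosphates, averaged 10.32 ± 0.40 (SD, n = 15). Its lowest values were 9.48 in tumor_9514 and 9.82 in tumor_9509, its median was 10.34, and its highest values were 10.85 in tumor_9523, 10.82 in tumor_29 and 10.67 in tumor_9492. The gap below the 13 other tumours was small, since tumor_9508 stood at 9.96. Pgk1, the kinase that makes the first ATP of the pathway, averaged 9.90 ± 0.18, from 9.54 in tumor_9504 over a median of 9.91 to 10.20 in tumor_9492. Its SD was the smallest of the 9, above only 14.3% of detected genes. Part of the Pgk1 probesets were very bright: the 7 with a mean above 12 had SDs over 15 tumours of 0.13 to 0.23, against 0.20 to 0.74 for the other 14. Their median agreement was r = 0.31 over 15 and 0.29 over 13 tumours, against 0.58 and 0.75 for the other 14. Whether saturation sets this was not tested.

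Pgam1, the phosphoglycerate mutase of non-muscle tissue, averaged 8.50 ± 0.46 (SD, n = 15). It was 7.42 in tumor_9514 and 7.93 in tumor_9509, against 8.12 in tumor_31 to 9.04 in tumor_29 among the others, with an overall median of 8.60. The 13 probesets of Pgam1 agreed at a median r of 0.78 over 15 and 0.55 over 13 tumours. Eno1, the enolase that forms phosphoenolpyruvate, was 6.98 ± 0.42 on its 1 probeset, from 6.22 in tumor_9492 to 7.69 in tumor_9495. No second probeset checks that pattern. Across members, tumor_29 was among the 3 highest tumours for 5 of the 9 genes, and tumor_9514 and tumor_9509 were among the 3 lowest for 7 and 6. How often a tumour takes such a rank over all detected genes was not counted. Many genes were low in tumor_9509 and tumor_9514, and both lay below all 13 others for 24.1% of detected genes. These counts alone therefore do not set the members apart from other genes.

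**Figure D1:**
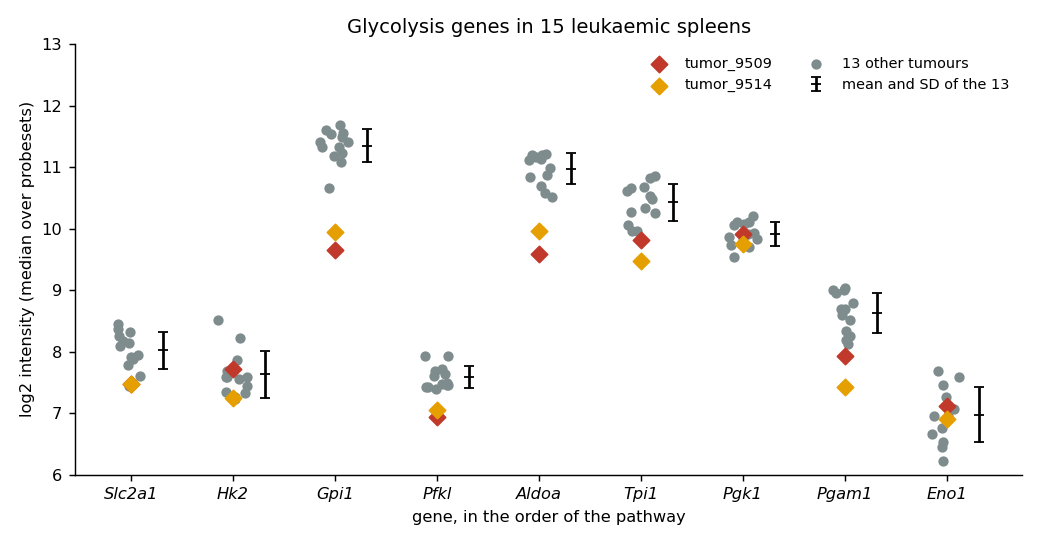
Log2 intensity (vertical axis) of the 9 measured genes (horizontal axis, in pathway order) in each tumour, with tumor_9509 and tumor_9514 as diamonds, the 13 other tumours as grey points and black bars for the mean and SD of those 13. Both diamonds lie below all grey points for Gpi1, Pfkl, Aldoa, Tpi1 and Pgam1, and within them for Slc2a1, Hk2, Pgk1 and Eno1.

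In the arrays set apart, Gpi1, Pfkl, Aldoa, Tpi1 and Pgam1 were low. On the log2 scale Gpi1 differed by -1.70 (tumor_9509) and -1.39 (tumor_9514) from the mean of the other 13, 11.34. Aldoa differed by -1.38 and -1.02 from its mean of 10.98, in the same order of arrays. Pgam1 differed by -0.70 and -1.21 from 8.63, Tpi1 by -0.61 and -0.95 from 10.42, and Pfkl by -0.65 and -0.54 from 7.59. Both arrays were below all 13 others for these 5 of the 9 members, against 24.1% of all detected genes, and above all 13 for 0 of 9, against 2.6%. Many genes were thus low in these arrays, with a median difference of -0.24 over all detected genes. The share of detected genes with a more negative mean difference was 1.08% for Gpi1, 3.85% for Aldoa, 8.92% for Pgam1, 15.1% for Tpi1 and 24.3% for Pfkl. It was 27.2% for Slc2a1, close to Pfkl, and 57.2% for Hk2, 62.0% for Pgk1 and 73.2% for Eno1, so the members ran in a graded order. With arrays centred on their medians, 4 members lay below all others (17.5% of genes). After quantile normalization 3 did, Gpi1, Pfkl and Aldoa (11.7% of genes, with a median difference of 0.022), and the mean differences of Hk2 and Pgk1 turned positive, at 0.22 and 0.17.

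Most probesets of every member but Eno1 were lower in these arrays. The difference was negative in 20 of 20 Gpi1 probesets (from -1.69 to -0.38), 8 of 8 for Aldoa, 10 of 10 for Tpi1, 11 of 13 for Pgam1, 19 of 21 for Pfkl, 8 of 9 for Slc2a1, 17 of 21 for Pgk1, 19 of 25 for Hk2 and 0 of 1 for Eno1. Both arrays were the lowest of all in 15 probesets of Gpi1, 6 of Aldoa, 5 of Tpi1, 7 of Pgam1 and 8 of Pfkl. This held in 1 probeset of Slc2a1, 2 of Pgk1, 1 of Hk2 and 0 of Eno1. The share over all probesets was not counted. Since the median difference over all detected genes was -0.24, these counts alone do not set the members apart. The citric acid cycle genes, which burn the pyruvate that glycolysis makes, were also low in these arrays: 11 of 15 detected ones lay below all others (24.1% over all detected genes), with a median difference of -0.79, among them Mdh2 (mean of both 9.06, against 10.54) and Ogdh (7.79 against 9.20). Of the regulators 7 of 16 did so, Myc among them, and of pyruvate dehydrogenase and its kinases 4 of 10. The other lists lay nearer to the 24.1% of all detected genes. They gave 2 of 8 in the rest of glycolysis and lactate export (Bsg and Pfkfb3), 2 of 6 of the pentose phosphate pathway (Tkt and Taldo1), 1 of 3 of gluconeogenesis, 4 of 14 HIF targets, 5 of 18 cycling genes and 2 of 11 detected relatives of the members (Hk1 and Eno3). The 9 neutrophil markers averaged 11.71 and 11.78 in these arrays, against 9.59 to 12.17 in the others, and summed to 15.48 and 15.49 against 14.40 to 15.58 (log2 of summed intensity); 3 of the 9 were above all others. Of 8 erythroid markers, 4 were detected, and they averaged 8.42 and 8.46 against 7.07 to 8.51, within the range of the others. They summed to 12.56 to 12.90 against 9.90 to 12.49, with 1 of 4 above all others. The sum leans on Hbb-b1, the brightest at a mean of 11.21 over 15 tumours, with Slc4a1 next at 7.22. B cell markers, 3 of 6 detected, summed to 9.75 to 10.27 against 8.45 to 10.02, with 0 of 3 above all others. T cell markers, 4 of 6 detected, summed to 9.71 to 10.04 against 8.56 to 10.09, with 1 of 4 above all others. Promyelocyte markers summed to 13.62 to 13.67 against 13.67 to 14.28, with 0 of 5 detected ones below all others. Red pulp macrophage markers, 6 of 8 detected, averaged 6.88 and 7.03 against 7.01 to 8.30 and summed to 9.60 to 9.89 against 9.84 to 11.56. Of these, Vcam1 was below all others, with a difference of -1.74, and Adgre1 differed by -1.34 and Slc40a1 by -1.13. The other detected ones differed less, Hmox1 by -0.46, C1qa by -0.26 and C1qb by 0.018, and Cd5l and Spic were not detected. Endothelium and stroma markers, 5 of 8 detected, summed to 9.52 to 9.68 against 9.66 to 10.61, with 1 of 5 below all others. They did not move together: Pecam1 and Pdgfrb differed by -0.94 and -0.73, but Col1a1, Col1a2 and Col3a1 by 0.25, 0.21 and 0.18. The part of cell makeup, RNA quality and the low array intensity in the low enzyme levels was not tested.

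**Figure D2:**
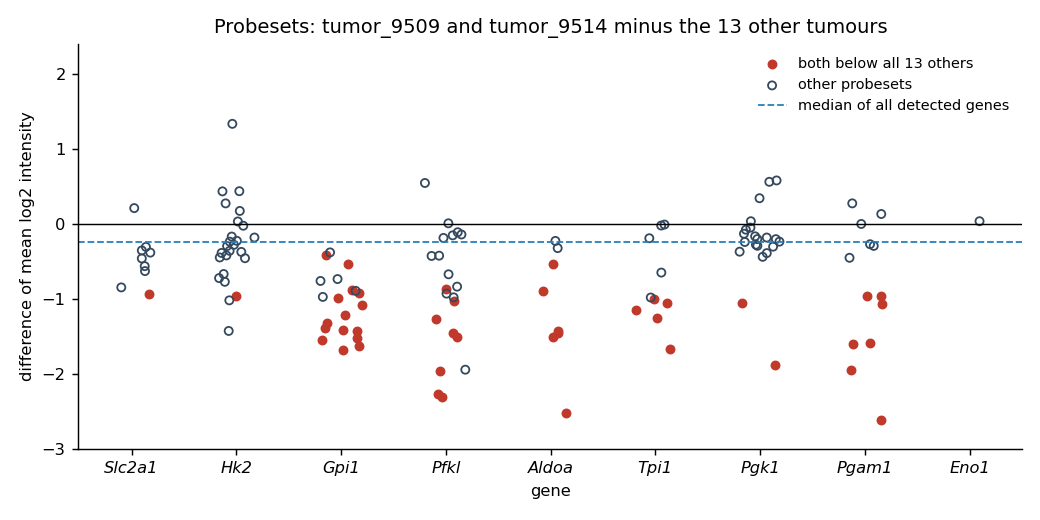
Difference of mean log2 intensity, tumor_9509 and tumor_9514 minus the 13 other tumours (vertical axis), for each probeset of the 9 genes (horizontal axis); filled red points mark probesets in which both arrays lie below all 13 others, open points the rest, and the dashed line the median of all detected genes, -0.24. All 20 Gpi1 points lie below 0, whereas those of Hk2 scatter around the dashed line.

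Which members vary together was asked by fitting every detected gene on the level of each member in turn with limma, two-sided, with Benjamini-Hochberg adjustment over 9765 genes. A pair was called when the adjusted p was under 0.05 in both of its fits. Over 15 tumours Gpi1, Pfkl, Aldoa, Tpi1 and Pgam1 formed a connected group, and 7 of 36 pairs were called, all positive. The highest was Gpi1 with Aldoa (r = 0.85, permutation p = 0.00136; rho = 0.53, p = 0.0467, n = 15; limma adjusted p = 0.000654 and 0.000610). The others were Pfkl with Aldoa (r = 0.78), Gpi1 with Pgam1 (0.76), Pfkl with Tpi1 (0.74), Gpi1 with Pfkl (0.73), Gpi1 with Tpi1 (0.71) and Aldoa with Tpi1 (0.69). In the Gpi1 fit, 4 of the 8 other members were called, against 23.6% of all genes called in that direction. The Pfkl, Aldoa and Tpi1 fits each called 4 of 8 too, against 11.3%, 20.3% and 14.4% of genes, and the Pgam1 fit called 1 of 8, against 3.41%. No member was called in the negative direction, against 1.25% (Gpi1), 0.399% (Pfkl), 0.553% (Aldoa), 0.727% (Tpi1) and 0.696% (Pgam1) of genes. The fits on Slc2a1, Hk2, Pgk1 and Eno1 called 0 of 8 members and 0.0% of genes. At an unadjusted p under 0.05 the limma fit on Slc2a1 gave 3 members and 1332 genes, that on Pgk1 2 and 680, and those on Hk2 and Eno1 0 and 287, and 0 and 375.

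This shared variation came with tumor_9509 and tumor_9514. Without them, 0 of 36 pairs were called by limma, and r was 0.28 for Gpi1 with Aldoa (permutation p = 0.360, rho = 0.27, n = 13), 0.088 for Gpi1 with Pfkl and 0.32 for Pfkl with Aldoa. Gpi1 with Pgam1 stood at 0.46 and Pfkl with Tpi1 at 0.49. The mean r over the 36 pairs was 0.34 with 15 tumours and 0.16 with 13, beside 0.079 and 0.021 over all pairs of detected genes. The number of pairs with r above 0.5 was 14 with 15 tumours and 2 with 13, Tpi1 with Pgk1 (0.87) and Pfkl with Pgk1 (0.57). The lowest r was that of Pgk1 with Eno1, -0.51 over 15 and -0.54 over 13 tumours, on the 1 probeset of Eno1. Leaving out tumor_9514 alone left 1 called pair, and leaving out tumor_9509 alone left 2.

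**Figure D3:**
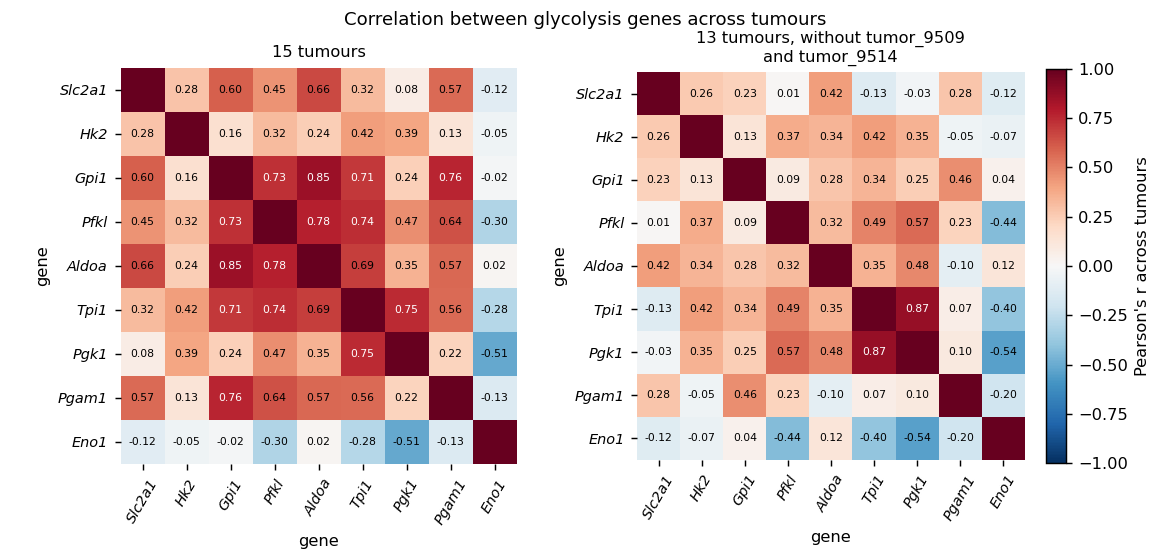
Pearson's r across tumours between each pair of the 9 genes, in colour and as numbers, with 15 tumours (left) and 13 tumours (right). The block joining Gpi1, Pfkl, Aldoa, Tpi1 and Pgam1, with r up to 0.85, is present at left, while Tpi1 with Pgk1, at 0.87, is the highest cell at right.

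Tpi1 and Pgk1 were the pair of members with the highest r among the 13 tumours. Both were highest in tumor_9492, tumor_9523 and tumor_29, where Tpi1 was 10.67, 10.85 and 10.82 and Pgk1 10.20, 10.11 and 10.10. Both were low in tumor_9504 (Tpi1 9.97, Pgk1 9.54) and tumor_9508 (9.96 and 9.70). The correlation was r = 0.87 (permutation p = 0.000140; rho = 0.90, p = 9.0e-05, n = 13) and 0.79 without tumor_9504 and tumor_9508, the tumours farthest from the median of Tpi1. Within the 8 of these tumours that carry a 4-digit number it was 0.91. It did not pass the adjustment over all genes in the limma fits (adjusted p = 0.159 for Pgk1 on Tpi1 and 0.236 for Tpi1 on Pgk1). Over all 15 tumours r was 0.75 (permutation p = 0.00137, rho = 0.82), with adjusted p = 0.0451 and 0.496, so the pair was not called there either. Over 13 tumours all 10 Tpi1 probesets correlated positively with the Pgk1 level, 6 of them with r above 0.5. Of 21 Pgk1 probesets 20 correlated positively with the Tpi1 level, 10 of them with r above 0.5. Probesets of a gene share the same arrays, and the share of such probesets over all genes was not counted. Pkm, the pyruvate kinase at the end of the pathway and no member, averaged 10.27 ± 0.57 and followed Tpi1 as well, with r = 0.91 over 15 tumours (limma adjusted p = 0.000448) and 0.82 over 13 (adjusted p = 0.0985).

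The promoters of these genes are shown because members that vary together are the ones the correlations turn on: Tpi1 and Pgk1 over 13 tumours, Gpi1 and Aldoa over 15. RefSeq windows of GRCm38.p6, each 300 bases long and ending shortly after the start, were searched on both strands for ACGTG and GCGTG, the core letters of the HIF response element; ACGTG is also part of CACGTG, the E-box bound by MYC. Capitals mark a match, read on either strand. The windows are chr6:124814109-124814408 on the minus strand for Tpi1, chrX:106186850-106187149 on the plus strand for Pgk1, chr7:34230287-34230586 on the minus strand for Gpi1 and chr7:126799205-126799504 on the minus strand, 1 of 3 windows, for Aldoa.
Tpi1: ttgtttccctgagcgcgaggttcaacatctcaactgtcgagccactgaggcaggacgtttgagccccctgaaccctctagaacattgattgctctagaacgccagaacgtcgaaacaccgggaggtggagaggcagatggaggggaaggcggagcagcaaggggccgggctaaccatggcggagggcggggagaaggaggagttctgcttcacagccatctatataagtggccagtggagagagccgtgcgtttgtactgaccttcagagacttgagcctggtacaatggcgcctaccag
Pgk1: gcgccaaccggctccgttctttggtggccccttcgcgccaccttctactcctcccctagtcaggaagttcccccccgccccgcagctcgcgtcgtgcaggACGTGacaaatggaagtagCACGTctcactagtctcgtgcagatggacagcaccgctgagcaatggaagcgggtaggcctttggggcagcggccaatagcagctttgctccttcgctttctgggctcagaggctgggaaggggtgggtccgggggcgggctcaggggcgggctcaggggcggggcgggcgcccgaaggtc
Gpi1: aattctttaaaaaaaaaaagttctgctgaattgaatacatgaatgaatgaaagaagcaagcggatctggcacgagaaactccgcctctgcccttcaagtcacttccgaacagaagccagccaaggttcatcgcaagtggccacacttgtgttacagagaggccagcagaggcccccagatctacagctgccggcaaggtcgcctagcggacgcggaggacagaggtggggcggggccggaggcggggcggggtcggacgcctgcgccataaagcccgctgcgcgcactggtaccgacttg
Aldoa: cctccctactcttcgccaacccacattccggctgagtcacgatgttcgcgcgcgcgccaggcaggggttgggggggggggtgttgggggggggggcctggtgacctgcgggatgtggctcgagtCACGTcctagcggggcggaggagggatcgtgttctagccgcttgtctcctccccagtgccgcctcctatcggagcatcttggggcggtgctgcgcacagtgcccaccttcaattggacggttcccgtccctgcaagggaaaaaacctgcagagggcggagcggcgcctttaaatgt
Pgk1 held 2 matches and Aldoa 1, while Tpi1 and Gpi1 held 0 in these windows. Over the 15 windows of the 10 listed genes, 12 held ACGTG or GCGTG, against 43.8% of 32851 windows of all genes, and 8 of the 10 genes had at least 1 such window. Some windows of Aldoa and of Eno1 overlap and count the same match again. The share per gene was not computed over all genes, so the 8 of 10 has no background. CACGTG occurred in 1 member window, that of Ldha, against 7.15% of all windows. In each pair 1 gene held a match and the other held none. A match is a description of sequence, not a site in use.

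Genes outside the list that were most like each member differed with and without the 2 arrays. Over 15 tumours the closest to Gpi1 were Arhgap19 (r = 0.96), Osbpl11 (0.96) and R3hdm2 (0.96), and the closest to Aldoa were Brd3 (0.95), Prelid1 (0.95) and Gatad2a (0.95). Over 13 tumours limma called 4 genes with Gpi1, 0.041% of those tested: Ngp (r = 0.91, adjusted p = 0.0222), Klhl28 (0.90), Pde2a (0.90) and Lnpk (0.89). Ngp, a neutrophilic granule protein, stood at r = 0.0049 with Gpi1 over 15 tumours, since it was high (12.80 on average) in the 2 arrays where Gpi1 was low. Both Ngp and Gpi1 had their lowest value of the 13 in tumor_9508 (10.83 and 10.66), and without tumor_9508 and tumor_9523 r was 0.71. Among the 9 neutrophil markers, Ngp was the 1 called with Gpi1 over 13 tumours, and 6 were positive at an unadjusted p under 0.05, against 6.83% of all genes. Ltf, Camp, Mmp8, Cxcr2 and Retnlg also had their lowest value in tumor_9508, so these markers share that extreme tumour with Gpi1. Aldoa stayed closest to Brd3 (r = 0.90 over 13 tumours, adjusted p = 0.149).

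Genes of its own chromosome were frequent among those most like Tpi1. Over 13 tumours limma called 4 genes with Tpi1, again 0.041%, and all 4 lie on chromosome 6, which holds Tpi1 and 4.72% of the 9444 genes ranked. They were Mcm2, a subunit of the replicative helicase (r = 0.94, adjusted p = 0.00320), the nuclear pore gene Nup210 (0.93), Wbp11 (0.94) and Gars, the glycyl-tRNA synthetase (0.91), the last 3 with an adjusted p of 0.0182. Mcm2 was 9.14 in tumor_29, its highest value, and 7.25 in tumor_9514, its lowest, and it correlated with Tpi1 at 0.96 over all 15. Without tumor_9504 and tumor_9508 the r of these 4 genes with Tpi1 lay between 0.89 and 0.93. Of the 20 genes most like Tpi1, 7 were on chromosome 6 over 13 tumours and 5 over 15. A chromosome value, the median deviation of a chromosome's other detected genes relative to the tumour's median, was highest for chromosome 6 in tumor_9523 (0.23), tumor_31 (0.21) and tumor_9509 (0.21) and lowest in tumor_9504 (-0.085). Tpi1 correlated with it at 0.59 over 13 tumours, above 82.2% of genes, but at 0.15 over 15, above 43.4%. In tumor_9509 and tumor_9514 a raised chromosome value was combined with a low Tpi1. Hk2, also on chromosome 6, stood at 0.44 and 0.43. The median gene correlated with its own chromosome at 0.26 over 13 and 0.22 over 15 tumours.

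Pgam1 was likewise close to genes of its own chromosome. Of the 20 genes most like it over 15 tumours, 15 lie on chromosome 19, its own, which holds 3.86% of the genes ranked, and over 13 tumours 8 did. The closest were Ganab (r = 0.91, limma adjusted p = 0.00345), Eef1g (0.90) and Gbf1 (0.89), all on chromosome 19, and over 13 tumours Ganab stood at 0.83 (adjusted p = 0.417). The chromosome 19 value was -0.27 in tumor_9492, -0.25 in tumor_9523, -0.23 in tumor_9509 and tumor_9514 and -0.18 in tumor_31, and between -0.011 and 0.14 in the other 10. The deviation of Pgam1 from its median over tumours, taken relative to the tumour's own median like the chromosome value, lay below 0 in all 5 of those tumours, from -1.01 in tumor_9514 to -0.30 in tumor_9492. It was also low in tumor_9508 (-0.41) at a chromosome value of 0.049. Pgam1 correlated with the chromosome value at 0.74 over 15 tumours, above 96.3% of genes, and at 0.66 over 13, above 88.7%. Gpi1 and Aldoa share chromosome 7, and their r with its value differed with the arrays used: over 15 tumours they stood at -0.53 and -0.18, and over 13 at -0.094 and 0.66. These values share arrays and are given as descriptions, and DNA copy number was not analysed here.

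**Figure D4:**
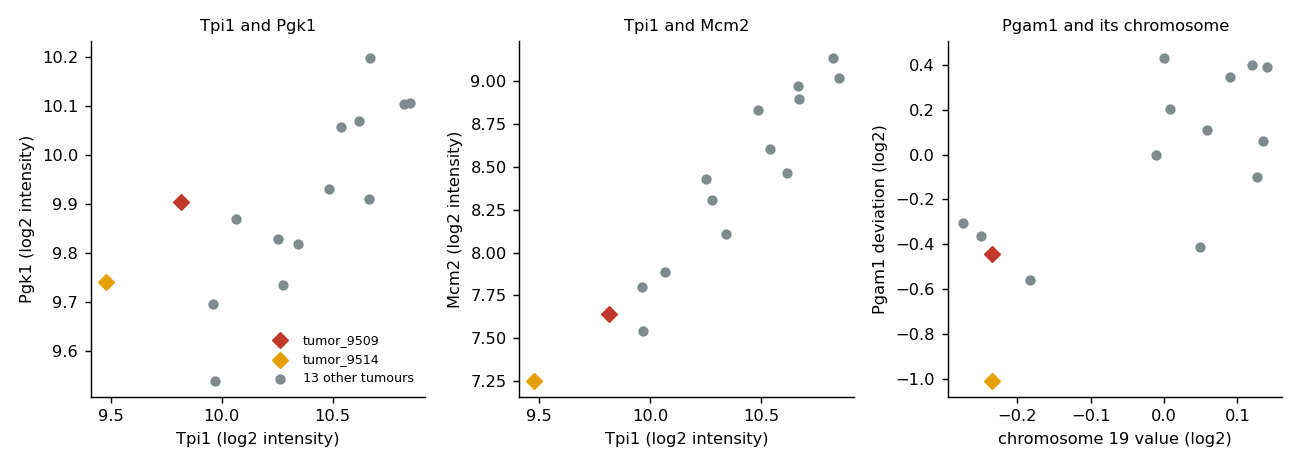
Left, Pgk1 against Tpi1; middle, Mcm2 against Tpi1 (all log2 intensity); right, the deviation of Pgam1 against the value of chromosome 19 (both log2, relative to the tumour median). Diamonds are tumor_9509 and tumor_9514 and grey points the 13 other tumours. Both relations of Tpi1 are close among the 13, at r = 0.87 and 0.94, and the 5 tumours with chromosome 19 values of -0.18 or lower all have a Pgam1 deviation below 0.

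Most limma calls of regulators and partner pathways with the members were made only with tumor_9509 and tumor_9514 included. Few genes of any kind were called without them: 0.041% of genes with Gpi1, 0.041% with Tpi1 and none with any other member. Of 15 detected citric acid cycle genes limma called 9 with Gpi1, 9 with Tpi1, 7 with Aldoa, 7 with Pfkl and 2 with Pgam1 over 15 tumours, all positive, with a median r to Tpi1 of 0.73 against 0.25 over all genes. Of 14 detected HIF targets 5, 1, 4, 4 and 2 were called with these members in that order, and of 18 cycling genes 9, 9, 6, 6 and 0. Over all genes the shares called were 23.6%, 14.4%, 20.3%, 11.3% and 3.41% in the same order. The HIF target count lay below its share with Tpi1 and above it with Gpi1, Aldoa, Pfkl and Pgam1, each on few genes. Myc, which averaged 10.82 ± 0.69 with 9.15 in tumor_9514 and 11.77 in tumor_29, passed limma's adjustment over 15 tumours with Gpi1 (r = 0.72, adjusted p = 0.00654), Pfkl (0.77, adjusted p = 0.0153), Aldoa (0.76, adjusted p = 0.00366), Tpi1 (0.72, adjusted p = 0.0128) and Pgam1 (0.71, adjusted p = 0.0346). The rho of Myc with these members was 0.068, 0.58, 0.39, 0.46 and 0.45, and over 13 tumours r was -0.32, 0.35, 0.092, 0.30 and 0.19. Hif1a, the oxygen-regulated HIF subunit, stood highest with Tpi1 among the members, at 0.63 over 15 (limma adjusted p = 0.0641) and 0.60 over 13 tumours. Mki67, the proliferation antigen, had an r of 0.23 or less with each member over 15 tumours. Bnip3, a HIF target of mitochondrial turnover, followed Pgam1 at r = 0.82 over 15 tumours (limma adjusted p = 0.0184) and 0.81 over 13 (adjusted p = 0.417). Over 13 tumours 0 genes of the citric acid cycle, HIF target and regulator lists passed limma's adjustment with any member, and Mcm2 with Tpi1 was the 1 call among cycling genes. At an unadjusted p under 0.05, 8 of 18 cycling genes, 5 of 15 citric acid cycle genes, 2 of 14 HIF targets and 4 of 16 regulators were positive with Tpi1 there, against 8.94% of all genes. With Gpi1 these counts were 0 of 18, 0 of 15, 0 of 14 and 2 of 16, against 6.83% of all genes.

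The form of the tumour number is the other split the labels offer, and its meaning is not given. Between the 5 tumours with a 2-digit number and the 10 with a 4-digit number, limma called 0 of 9 members and 0.0% of 9766 genes (226 genes at an unadjusted p under 0.05). Gpi1 had the largest difference, 11.49 ± 0.18 (SD, n = 5) in 2-digit tumours and 10.96 ± 0.66 (SD, n = 10) in 4-digit tumours, a difference of 0.53 ± 0.28 (SE). Its limma adjusted p was 1.00. Both arrays set apart carry 4-digit numbers, and over 13 tumours the Gpi1 difference was 0.24.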

How the data were processed

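Total RNA of 15 leukaemic spleens was amplified to cDNA and biotin-labelled, per the labels' protocols, and read on Affymetrix exon arrays. The authors deposited 1 linear intensity per probeset and array, from 2.38 to 19380.5. RMA and mm9 are named, without version, per the submitters' processing notes. RMA equalises arrays and can shrink array-wide differences. The linear scale was read from the values, all above 0. No value was centred, and 1-colour arrays have no direction. The number of arrays limits the precision.

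Of 229581 probesets, 208397 have 1 symbol in the platform annotation, 3965 several and 17219 none, and single-symbol probesets alone entered. The GRCm38.p6 table lists 14132 of 16299 symbols as current, 2124 took a newer name from it and 43 kept theirs. That table served for names and chromosomes only. Intensities were log2 transformed here, a gene being the median over its probesets.

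Fits used limma 3.58.1 in R 4.3.3 (lmFit, eBayes), without a filter beyond detection, and the fitting step was tested on simulated data. Correlations have two-sided permutation p from 100000 resamples (Python 3.11.15, scipy 1.17.1); the 36 member pairs have no adjustment among themselves. The members and lists were chosen with earlier results of these data known. Named are all members, listed regulators, per list the 2 brightest and 2 most variable detected genes, and per member the 3 genes of at least 3 probesets with the highest r over 15 and over 13 tumours. Citric acid cycle, HIF target, paralogue, pentose phosphate and lactate export genes that lay below all other tumours, Lnpk, Gars and the macrophage markers were chosen after their values were seen. Scanner files were not analysed here, so scan date could not be checked.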

Additional observations from a re-analysis of the deposited data

How the results depend on the processing

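The number of member pairs called by limma, 7 as reported, was 11 with the mean over probesets, 4 with probesets above the 25th percentile, 3 with arrays centred on their median, 1 after quantile normalization and 0 with the rank of the member level. It was 0 without tumor_9509 and tumor_9514, and 0 when that was joined, after the data were seen, with the mean over probesets, probesets above the 25th percentile, centred arrays or quantile normalization. Leaving out each tumour in turn gave 1 to 7. The mean r over pairs, 0.34, was 0.16 after quantile normalization and 0.16 without the 2 arrays. Joined with the same 4 settings, in that order, it was 0.20, 0.17, 0.14 and 0.14, and between 0.24 and 0.36 with single tumours left out. Gpi1 with Pfkl turned to r = -0.047 with quantile normalization and without the 2 arrays. Tpi1 with Pgk1 passed in both fits with the mean over probesets (r = 0.77, larger adjusted p = 0.0353). The number of members with an SD above the median gene stayed between 6 and 8 (6 to 7 with single tumours left out), and numbering calls stayed at 0 in every setting run. No paired analysis was possible because the labels give 1 group. The cause of these shifts was not tested. Precision is limited by 15 arrays, by 1 probeset for Eno1, by dim Pfkl probesets and by very bright Pgk1 probesets.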
